A study of Mus musculus with 4 samples.

Results

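This account concerns 10 genes of the vessel lining and of its growth signals in the embryonic mouse stomach, out of 51098 genes in the deposited table. The genes are Cdh5, Pecam1 and Tek of the blood vessel endothelium, Kdr, Flt1 and Flt4, which encode receptors for vascular endothelial growth factors (VEGF), Prox1 and Lyve1 of the lymphatic endothelium, and the ligand genes Vegfa and Vegfc. They were chosen by symbol, and each matched 1 row. RNA was taken from embryonic stomachs of mice at E15.5 (a day of embryonic development), depleted of ribosomal RNA and sequenced. Fgf9_null denotes stomachs of genotype Fgf9LacZ/LacZ (Fgf9KO in the treatment field), and Fgf9_het denotes stomachs of genotype Fgf9LacZ/+ (control in the treatment field, WT in the sample titles). All samples thus carry at least 1 Fgf9LacZ allele. The labels give neither strain nor sex, nor whether a sample was 1 embryo or a pool. Each group had 2 samples, numbered 2 and 3.

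Fgf9, the targeted gene, had 133 and 131 counts under the Fgf9_null label and again 133 and 131 under the Fgf9_het label. Since the labels do not say which part of the gene the allele lacks, these counts do not check the genotype. Column totals ran from 19269851 to 22713416 estimated counts. Outside 4 genes of structured RNAs or pseudogenes with an unadjusted edgeR p under 0.05, a chi-square comparison of the columns with the same number gave 0.000792 per degree of freedom in replicate 2 and 0.00385 in replicate 3, far below sampling noise. Columns of different number gave 5.49 or more. Same-numbered columns were therefore counted as 1 sample, which leaves 2 independent libraries, called library 2 and library 3, each present under both genotype labels. Which genotype each library had cannot be told from these columns. With no statement that they came from separate embryos, the SD over 2 libraries may be technical. The tissue label was checked with Barx1, a transcription factor gene of the stomach mesenchyme, which stood at 129 CPM in library 2, against 136 CPM in library 3.

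As background, VEGF-A is the main growth signal for blood vessels and acts through the receptor tyrosine kinases VEGFR2 (Kdr) and VEGFR1 (Flt1), the last of which binds VEGF-A tightly and limits its action. VEGF-C drives the growth of lymphatic vessels through VEGFR3 (Flt4), and its secreted precursor is activated by the protease ADAMTS3 with the help of CCBE1. Lymphatic vessels of the mouse embryo arise largely from veins, where the transcription factor PROX1 sets the lymphatic identity. Tek, also called Tie2, is the receptor of the angiopoietins, ligands that act on the vessel wall.

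All 10 genes were detected at 1 CPM (counts scaled to a column total of 1000000) or more in both libraries, a level reached by 16712 genes in all. In CPM, Cdh5 and Vegfa were the highest at 104 ± 14.1 and 91.6 ± 1.82, and Lyve1 and Prox1 the lowest at 6.34 ± 1.32 and 5.99 ± 1.01 (SD, n = 2 libraries). CPM depends on transcript length, so the order of genes is given per kilobase further on. In a whole-stomach sample, fewer cells of a type and less RNA per cell cannot be told apart.

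**Figure D1:**
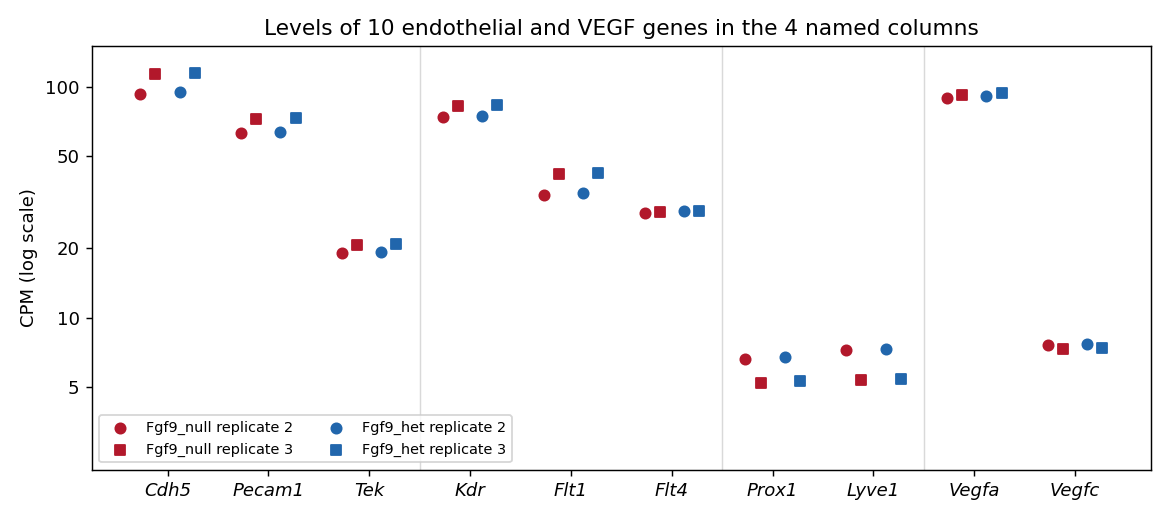
CPM (log scale) of each of the 10 genes in the 4 named columns, Fgf9_null in red and Fgf9_het in blue, with circles for replicate 2 and squares for replicate 3. Each point is 1 column, and the same-numbered points of the labels sit side by side, as for Cdh5 at 93.3 CPM under Fgf9_null and 94.7 CPM under Fgf9_het in replicate 2.

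The stated comparison of the study set Fgf9_null against Fgf9_het stomachs. For these 10 genes the counts under the 2 labels differed by at most 2.001 counts in any replicate. Cdh5 had 1823 and 2569 counts under Fgf9_null and 1824 and 2571 counts under Fgf9_het. Kdr had 1440 and 1875 counts under Fgf9_null and 1441 and 1875 counts under Fgf9_het. Vegfc had 149 and 166 counts under either label. The pairs of values covered nearly the same range for every gene, and for 5 of the 10 genes they were equal within 0.01 counts in both replicates. Over all genes with 10 or more counts summed over the 2 columns, 60.8% in replicate 2 and 59.1% in replicate 3 were equal within 0.001 counts.

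edgeR's quasi-likelihood test called 0 of the 10 genes, against a background of 0% of 19987 genes tested. Their log2 folds of Fgf9_null over Fgf9_het lay between -0.000685 (SE 0.166) for Cdh5 and 0.000346 (SE 0.232) for Lyve1, with an edgeR adjusted p of 1 for each. Over all genes, 4 had an unadjusted edgeR p under 0.05. DESeq2 called 3 genes (0.0101%) and edgeR with the replicate number as a block called 6, none of them among the 10. Since each library stands under both labels, these values compare a library with itself and do not measure an effect of Fgf9 on vessels.

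The general blood endothelial genes were well counted and all lower in library 2 than in library 3. Cdh5 encodes VE-cadherin, the adhesion protein of endothelial junctions (ENSMUSG00000031871, GRCm38 chromosome 8, 104101625 to 104144511, plus strand, protein coding, 2 annotated transcripts). It had 94.0 CPM in library 2, against 114 CPM in library 3. Exact Poisson intervals (95%, for counting error alone) ran from 89.7 to 98.4 CPM in library 2 and from 109.5 to 118.4 CPM in library 3, so they did not overlap.

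Pecam1 encodes CD31, an adhesion protein of endothelium that platelets and leukocytes also carry (ENSMUSG00000020717, chromosome 11, 106654217 to 106750628, minus strand, protein coding, 8 transcripts). It had 63.3 CPM in library 2, against 72.8 CPM in library 3. Tek, the angiopoietin receptor gene (ENSMUSG00000006386, chromosome 4, 94739289 to 94874976, plus strand, protein coding, 4 transcripts), had 19.1 CPM in library 2, against 20.7 CPM in library 3. The fold of library 2 over library 3 was 0.825 for Cdh5 (95% counting interval 0.777 to 0.877), 0.869 for Pecam1 (0.806 to 0.936) and 0.922 for Tek (0.802 to 1.06). The interval of Tek includes 1, and those of Cdh5 and Pecam1 do not. With 1 library on each side these folds have no replicate check.

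Among the VEGF receptor genes, Kdr and Flt1 were lower in library 2, while Flt4 was level. Kdr, the gene of the main signalling receptor for VEGF-A (ENSMUSG00000062960, chromosome 5, 75932827 to 75978458, minus strand, protein coding, 3 transcripts), had 74.2 CPM in library 2, against 83.1 CPM in library 3. Flt1 (ENSMUSG00000029648, chromosome 5, 147561604 to 147726011, minus strand, protein coding, 6 transcripts) had 34.3 CPM in library 2, against 42.1 CPM in library 3. Flt4, the VEGF-C receptor gene (ENSMUSG00000020357, chromosome 11, 49609263 to 49652739, plus strand, protein coding, 2 transcripts), had 28.7 CPM in library 2, against 28.8 CPM in library 3. The fold of library 2 over library 3 was 0.894 for Kdr (0.833 to 0.957), 0.813 for Flt1 (0.736 to 0.899) and 0.995 for Flt4 (0.887 to 1.12). Flt4 is known from both lymphatic endothelium and growing blood capillaries, and its interval includes 1.

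The upstream sequences of the receptor genes Kdr, Flt1 and Tek and of Prox1 are shown to set their start regions side by side. The library folds of Tek and Prox1 have intervals that include 1, and no link between sequence and fold was tested. Each is the 200 bases before the RefSeq start (GRCm38.p6), read 5′ to 3′ on the gene's strand, with capitals marking GGGCGG or its reverse complement CCGCCC (the GC box). The windows are chr5:75978456-75978655 for Kdr, chr5:147726012-147726211 for Flt1, chr4:94739089-94739288 for Tek and chr1:190170828-190171027 for Prox1. The last 3 bases of the Kdr window lie inside an annotated exon.
Kdr (minus strand): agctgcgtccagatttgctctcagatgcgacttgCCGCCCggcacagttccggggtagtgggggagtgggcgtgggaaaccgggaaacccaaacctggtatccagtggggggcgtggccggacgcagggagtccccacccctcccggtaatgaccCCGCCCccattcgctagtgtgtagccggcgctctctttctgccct
Flt1 (minus strand): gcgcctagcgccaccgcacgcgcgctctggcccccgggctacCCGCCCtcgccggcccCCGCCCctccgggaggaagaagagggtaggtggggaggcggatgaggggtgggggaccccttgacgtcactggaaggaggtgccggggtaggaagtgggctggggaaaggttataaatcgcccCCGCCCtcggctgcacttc
Tek (plus strand): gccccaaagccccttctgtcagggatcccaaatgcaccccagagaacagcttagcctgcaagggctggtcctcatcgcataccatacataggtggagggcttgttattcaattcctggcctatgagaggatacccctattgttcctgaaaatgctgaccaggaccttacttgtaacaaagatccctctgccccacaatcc
Prox1 (minus strand): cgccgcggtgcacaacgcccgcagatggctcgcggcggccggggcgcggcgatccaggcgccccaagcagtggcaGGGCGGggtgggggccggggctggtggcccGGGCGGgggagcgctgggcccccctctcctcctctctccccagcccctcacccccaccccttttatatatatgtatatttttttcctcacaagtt

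The GC box occurred 2 times in the Kdr window, 3 times in the Flt1 window, 2 times in the Prox1 window and not in the Tek window. Of 32505 windows of the same length in the RefSeq table, 31.3% hold it. Among the windows not shown, that of Flt4 holds it 3 times, that of Vegfa 2 times and that of Vegfc not at all. All 200 bases of the Flt4 window lie inside annotated exons of Flt4. The sequence AGGAAG, a core that ETS factors can bind, was searched on both strands. It began 129 and 53 bases before the start of Flt1 and was found in none of the other windows shown, against 24.8% of all windows. TATAAA began 31 bases before the start of Flt1, and its reverse complement TTTATA 34 bases before that of Prox1, against 9.88% of all windows for either orientation. The share of G and C was 65.5% for Kdr, 71.5% for Flt1, 51.5% for Tek and 70% for Prox1, with a median of 53% over all windows. Matches of this kind describe letters only. The table gave windows for 7 of the 10 genes, with none used for Cdh5, Pecam1 and Lyve1.

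The lymphatic genes Prox1 and Lyve1 were the least abundant of the 10 and were higher in library 2. Prox1 (ENSMUSG00000010175, chromosome 1, 190118035 to 190170714, minus strand, protein coding, 3 transcripts) had 130 counts in library 2 and 119 counts in library 3, or 6.70 CPM in library 2, against 5.27 CPM in library 3. Lyve1, the gene of a hyaluronan receptor of lymphatic endothelium (ENSMUSG00000030787, chromosome 7, 110850607 to 110863239, minus strand, protein coding, 2 transcripts), had 141 counts in library 2 and 122 counts in library 3, or 7.27 CPM in library 2, against 5.41 CPM in library 3. The Poisson intervals of Prox1, 5.60 to 7.96 CPM in library 2 and 4.37 to 6.31 CPM in library 3, overlapped, as did those of Lyve1 at 6.12 to 8.57 CPM in library 2 and 4.49 to 6.45 CPM in library 3. The fold of library 2 over library 3 was 1.27 for Prox1 (0.983 to 1.64) and 1.34 for Lyve1 (1.05 to 1.73), so that only the Lyve1 interval lies above 1.

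Prox1os, an annotated antisense gene whose exons overlap those of Prox1, had no counts in the table, and Gm28172, antisense within the gene's span, had 1 count on average. The sources used here do not say whether counting used strand. Fetal macrophages and the sinusoid endothelium of the liver can also express Lyve1. The 10 macrophage markers summed to 130 CPM in library 2, against 134 CPM in library 3. Of these 10, 3 were higher in library 2, against 54.2% of all genes. C1qa, C1qb and Csf1r stood at 8.20 ± 0.878, 8.41 ± 1.33 and 38.6 ± 1.13 CPM, and C1qb was lower in library 2 by a fold of 0.799. The 3 that were higher, named here after their values were seen, were Mrc1, Fcgr1 and Adgre1 at 30.4 ± 2.17, 1.99 ± 0.178 and 5.27 ± 0.124 CPM. Their folds were 1.11 (0.989 to 1.24), 1.14 (0.720 to 1.79) and 1.03 (0.786 to 1.36), and each of these intervals includes 1. Of 4 liver sinusoid markers none reached 1 CPM in both libraries. They summed to 1.91 CPM in library 2, against 2.94 CPM in library 3, with Oit3, Stab2 and Clec1b at 0.667, 1.38 and 0.381 CPM on average. Clec4g had 0 counts in every column, which by a floor of 3 counts allows up to 0.156 CPM at the shallowest depth. The part of macrophages and of liver sinusoid endothelium in the level of Lyve1 was not tested.

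Prox1 is also made by liver and enteroendocrine cells. The 7 liver parenchyma markers summed to 35.4 CPM in library 2, against 59.4 CPM in library 3, with Alb at 4.38 CPM in library 2, against 11.8 CPM in library 3. Afp stood at 3.61 CPM in library 2, against 12.2 CPM in library 3. Ttr stood at 8.63 CPM in library 2, against 10.8 CPM in library 3, and Apoa1 at 17.8 CPM in library 2, against 21.6 CPM in library 3. The 5 enteroendocrine markers summed to 16.1 CPM in library 2, against 18.5 CPM in library 3. Insm1 led them at 6.60 CPM in library 2, against 8.29 CPM in library 3. Chga stood at 3.81 CPM in library 2, against 4.65 CPM in library 3. Chgb went the other way, at 4.90 CPM in library 2, against 4.70 CPM in library 3, a fold of 1.04 (0.782 to 1.39). Both sums were lower in library 2, where Prox1 was higher. Their part in the level of Prox1 was not tested.

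The ligand genes were nearly the same in both libraries. Vegfa (ENSMUSG00000023951, chromosome 17, 46016993 to 46032369, minus strand, protein coding, 13 transcripts) had 90.3 CPM in library 2, against 92.8 CPM in library 3. Vegfc (ENSMUSG00000031520, chromosome 8, 54077606 to 54187096, plus strand, protein coding, 3 transcripts) had 7.68 CPM in library 2, against 7.36 CPM in library 3. The fold of library 2 over library 3 was 0.972 for Vegfa (0.912 to 1.04) and 1.04 for Vegfc (0.831 to 1.31), and both intervals include 1. The table gives values per gene, so the spliced forms of Vegfa, which differ in how firmly they bind the matrix, are not separated here.

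**Figure D2:**
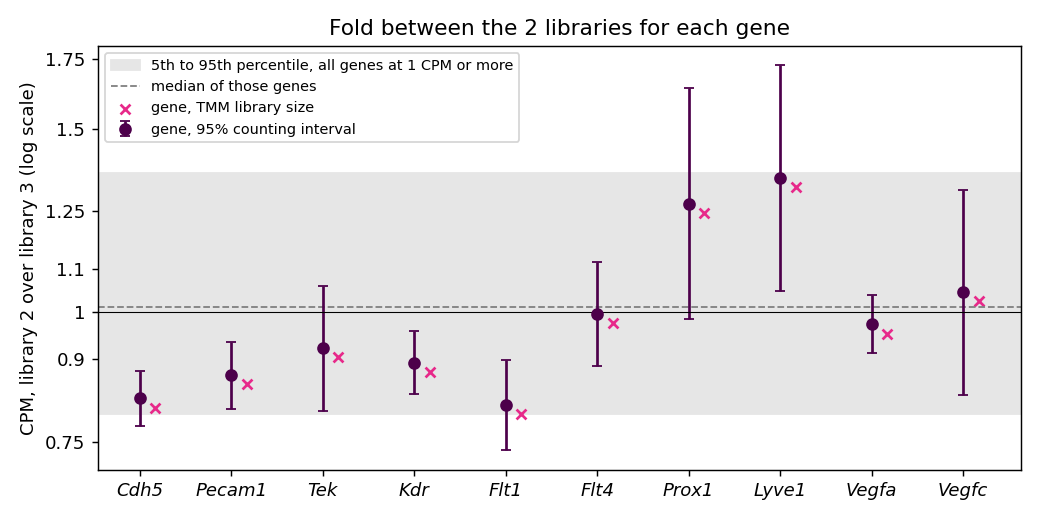
Fold of library 2 over library 3 in CPM (log scale) for each gene, with 95% counting intervals as bars and crosses for TMM library sizes; the grey band spans the 5th to 95th percentile (0.797 to 1.36) of 16712 genes at 1 CPM or more, and the dashed line their median of 1.01. Cdh5, Pecam1, Kdr and Flt1 have intervals below 1, Lyve1 has an interval above 1, and Flt4 and Vegfa lie close to 1.

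By a limit of 25%, chosen for description, 2 of the 10 genes were higher in library 2 (Prox1 and Lyve1), against 9.46% of 16712 genes. In library 3, 0 were at least 25% higher, against 5.18%. All 10 genes stood at 5 CPM or more in both libraries. At that level 592 of 12731 genes were at least 25% higher in library 2 and 291 in library 3. With TMM library sizes (edgeR's scaling for composition) the fold of Prox1 was 1.245, just short of the limit, while Lyve1 was past it at 1.32 and Flt1 was past it toward library 3 at 0.797. With that scaling the count was thus 1 of 10 higher in library 2, against 8.2% of all genes, and 1 of 10 higher in library 3, against 6.1%. None of the 10 was 1.5-fold higher in library 2, against 2.52% of all genes, or in library 3, against 1.36%, or 3.88% in either direction. The fold of Flt1 was lower than that of all but 5.90% of genes, that of Cdh5 lower than all but 6.65%, that of Prox1 higher than 91.6% of them and that of Lyve1 higher than 94.6%. Of the 10 genes, 3 were higher in library 2 by any amount, against 54.2% of all genes, and 7 were higher in library 3, against 45.8%. The median of the 10 folds was 0.947 beside 1.01 for all genes.

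Scaled to the union of annotated exons, the order of levels ran from Cdh5 to Prox1. Cdh5 led at 22.4 CPM per kilobase in library 2 and 27.1 in library 3, followed by Vegfa at 21.1 CPM per kilobase in library 2 and 21.7 in library 3. Pecam1 came next with 10.2 CPM per kilobase in library 2 and 11.7 in library 3, then Kdr with 8.22 in library 2 and 9.20 in library 3. Tek had 4.06 CPM per kilobase in library 2 and 4.40 in library 3. Flt4, Vegfc and Flt1 lay close together at 3.49 ± 0.0125, 3.07 ± 0.0936 and 2.83 ± 0.412 CPM per kilobase (SD, n = 2 libraries), and the library ranges of Vegfc and Flt1 overlapped. Lyve1 had 2.49 CPM per kilobase in library 2 and 1.85 in library 3, and Prox1 was the lowest at 0.799 in library 2 and 0.628 in library 3.

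For the other neighbours in this order the library ranges did not overlap, but the choice of transcript length moved some of them. With the longest transcript, Vegfa stood above Cdh5 (26.5 against 26.0 CPM per kilobase), and Flt1 stood above Flt4 and Tek (5.54 against 4.59 and 4.28). Flt1 moved because its 13504 bases of annotated exons compare with 6895 bases in its longest transcript. Lyve1 and Prox1 were the lowest pair with each of the 4 lengths tried. Within a library and per kilobase of exons, Vegfa exceeded Vegfc by 6.72 times in library 2 and 7.21 times in library 3, and Kdr exceeded Flt4 by 2.36 times in library 2 and 2.63 times in library 3. Cdh5 exceeded Lyve1 by 8.98 times in library 2 and by 14.6 times in library 3, the widest gap between libraries among these ratios.

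**Figure D3:**
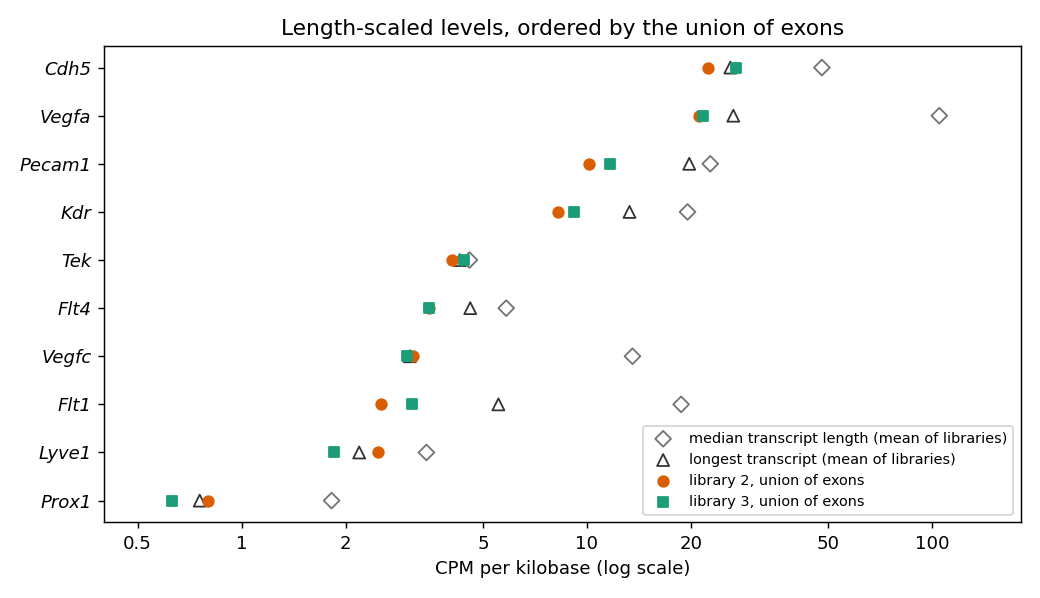
CPM per kilobase (log scale) of the 10 genes, highest at the top, with circles for library 2 and squares for library 3 over the union of exons, and open triangles and diamonds for the mean over libraries with the longest and the median transcript length. Lyve1 and Prox1 sit lowest with each length drawn, and Vegfa, Flt1 and Vegfc shift most between lengths.

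The wider blood endothelium list leaned the same way as its members among the 10. All 27 genes reached 1 CPM, 24 were lower in library 2, against 45.8% of all genes, and 3 higher, and the median fold of library 2 over library 3 was 0.897, beside 1.01 for all genes. Without the 5 genes already described, 19 of 22 were lower in library 2, with a median of 0.911. Plvap, which forms the diaphragms of fenestrated capillaries, had 41.4 CPM in library 2, against 57.8 CPM in library 3. Eng, a TGF-beta co-receptor of endothelium, had 61.0 CPM in library 2, against 77.3 CPM in library 3, whereas Egfl7, a secreted endothelial factor, had 43.6 CPM in library 2, against 45.4 CPM in library 3.

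By at least 25%, 0 of the 27 genes were higher in library 2 and 4 in library 3, beside 9.46% and 5.18% of all genes. Apart from Plvap and Eng these were Fli1, an ETS transcription factor gene, at 9.33 CPM in library 2, against 13.5 CPM in library 3, and Esm1, a gene of growing vessel tips, at 1.49 CPM in library 2, against 2.88 CPM in library 3. With TMM library sizes 6 of the 27 were at least 25% higher in library 3, against 6.1% of all genes, the further ones being Flt1 and Mmrn2, an endothelial matrix gene named after its value was seen. Summed blood cell markers were also lower in library 2. The 5 erythroid markers summed to 26.3 CPM in library 2, against 33.5 CPM in library 3, with Alas2, Slc4a1 and Epor at 15.1, 7.32 and 2.99 CPM in library 2 and at 18.2, 10.4 and 2.79 CPM in library 3. The 8 megakaryocyte and platelet markers, a possible source of Pecam1, summed to 11.7 CPM in library 2, against 13.5 CPM in library 3, and 3 of them reached 1 CPM. Gp1ba, Itga2b and Pf4 had 3.99, 3.20 and 3.40 CPM in library 2 and 4.83, 4.17 and 2.79 CPM in library 3. The part of blood cells in the endothelial values was not tested.

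The lymphatic list gave a mixed picture. Of 12 genes 11 reached 1 CPM, 7 were higher in library 2, against 54.2% of all genes, and 4 lower, with a median fold of 1.04 beside 1.01 for all genes. With TMM library sizes 6 of 11 were higher there and the median was 1.02 beside 0.991. By at least 25%, 4 of 11 were higher in library 2, against 9.46% of all genes: Prox1, Lyve1, the chemokine gene Ccl21a at 6.76 CPM in library 2, against 5.07 CPM in library 3, and Reln, which encodes the secreted protein reelin, at 34.9 CPM in library 2, against 25.7 CPM in library 3. With TMM library sizes 3 of 11 passed that limit, without Prox1, against 8.2%. Without the 3 genes already described, 8 reached 1 CPM. Of these, 5 were higher in library 2, with a median fold of 1.03, and 2 were at least 25% higher there. With TMM library sizes 4 of the 8 were higher in library 2 and 4 lower, with a median of 1.005. Nrp2, a co-receptor gene for VEGF-C, and Itga9, an integrin gene, led the list at 284 ± 7.94 and 149 ± 1.13 CPM, and Sox18, a transcription factor gene upstream of Prox1 in mouse, had 13.5 ± 0.748 CPM. Nrp2 and Itga9 are also made by smooth muscle and mesenchyme, and their levels far exceed those of Prox1 and Lyve1.

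**Figure D4:**
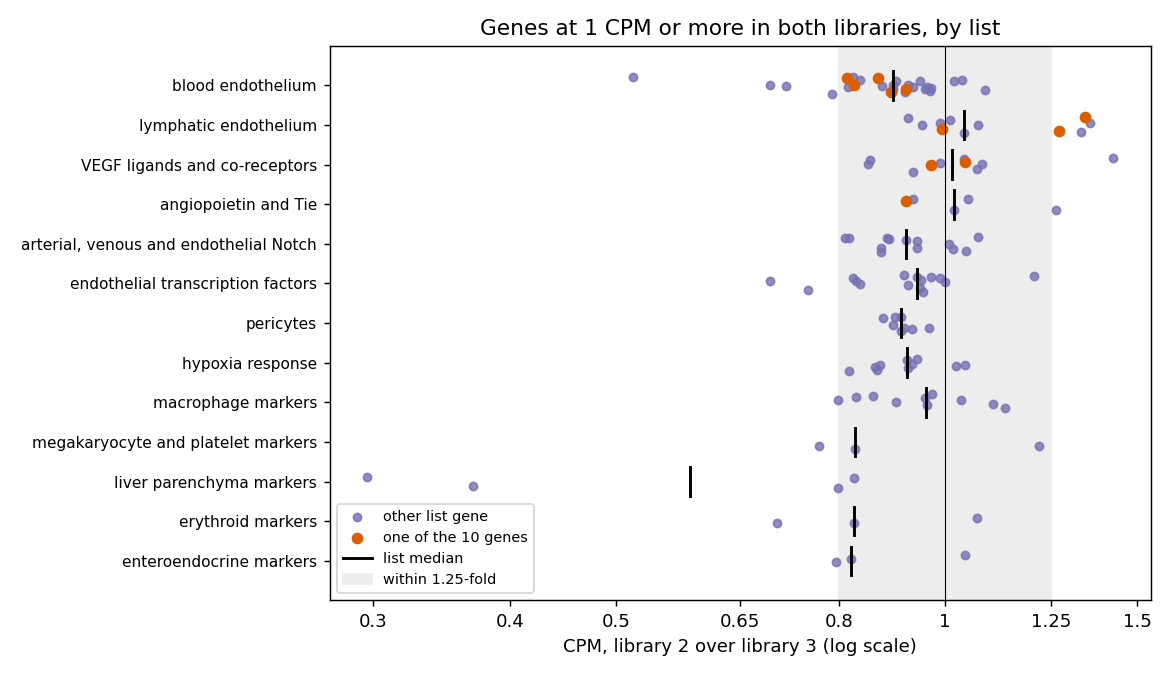
Fold of library 2 over library 3 in CPM (log scale) for the genes of each list at 1 CPM or more in both libraries, with the 10 genes in orange, other genes in violet, a black bar at each list's median and grey shading where the libraries differ by less than 25%. Most blood endothelial genes lie below 1 with a median of 0.897, while Prox1, Lyve1, Ccl21a and Reln stand at least 25% higher in library 2 in the lymphatic list.

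The list of VEGF ligands, co-receptors and VEGF-C processing genes, which includes Vegfa and Vegfc, was split between the libraries. All 10 genes of that list reached 1 CPM, 5 were higher in library 2, against 54.2% of all genes, and 5 lower, and the median fold was 1.02 beside 1.01 for all genes, or 0.995 with TMM library sizes. Vegfb, a ligand of Flt1, stood at 25.4 ± 1.19 CPM and Nrp1, a co-receptor gene for VEGF-A, at 79.6 ± 3.82 CPM. Vegfd, like Vegfc a ligand gene for Flt4, had 3.92 CPM in library 2, against 2.75 CPM in library 3, a fold of 1.43 (1.01 to 2.03). Vegfd was the sole gene of this list past the 25% limit, or 1 of 10 toward library 2, against 9.46% of all genes. In the angiopoietin list of 6 genes, 5 reached 1 CPM. Tie1, the partner receptor of Tek, and Ptprb, a phosphatase gene of endothelium, stood at 40.8 ± 1.94 and 44.3 ± 0.580 CPM. The ligand gene Angpt2 stood at 9.66 ± 0.335 CPM. Angpt1 had 5.35 CPM in library 2, against 4.24 CPM in library 3, a fold of 1.26 (0.946 to 1.68). Angpt1 was the sole gene of the 5 past the 25% limit, again beside 9.46% of all genes, and it fell short with TMM library sizes.

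Genes of arterial and venous identity and of endothelial Notch signalling were mostly lower in library 2. Of 14 genes 13 reached 1 CPM, 9 were lower in library 2, against 45.8% of all genes, and the median fold was 0.921 beside 1.01 for all genes. Ephb4, a venous receptor gene, and Efnb2, its arterial ligand gene, stood at 174 ± 1.17 and 82.2 ± 4.09 CPM, and Nr2f2, a venous transcription factor gene also made by mesenchyme, at 144 ± 6.02 CPM. None of the 13 differed by 25% or more, against 14.6% of all genes in either direction. At 5 CPM or more in both libraries, 883 of 12731 genes did. With TMM library sizes Hey1, a Notch target gene named after its value was seen, passed the limit toward library 3 at 0.795. Among 16 endothelial transcription factor genes, 15 reached 1 CPM and 14 of these were lower in library 2, again beside 45.8% of all genes. Their median fold was 0.943 beside 1.01. The lists share genes, such as Fli1, Sox18 and Nr2f2, so their counts are not separate observations. Klf4, which epithelium also expresses, had 59.8 ± 2.11 CPM, Gata2 had 2.42 CPM in library 2, against 3.24 CPM in library 3, and Etv2, which acts in the earliest endothelial precursors, had 0 counts.

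The hypoxia response list stands beside Vegfa, itself a target of hypoxia-inducible factors. Of 11 genes 10 reached 1 CPM, 8 of these were lower in library 2, against 45.8% of all genes, and the median fold was 0.924 beside 1.01 for all genes, where Vegfa had 0.972. Ldha and Pgk1, genes of glycolysis, had 273 and 134 CPM in library 2 and 313 and 164 CPM in library 3, and Ndrg1 stood at 373 ± 21.0 CPM. None of the 10 differed by 25% or more, against 14.6% of all genes.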

How the data were processed

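The authors deposited estimated counts for each Ensembl gene, without depth scaling. Salmon 1.8.0, Trimmomatic 0.33, FastQC 0.10, edgeR, GRCm38 and mm10 are listed, without roles, in the submitters' processing notes. The index, the strand setting and the summing to genes are not given there. The 4 samples were matched to columns by title and grouped by genotype; 2 further columns of values without a name were not used. The labels do not say what those columns hold, and it is not settled that each name heads its own values. Symbols were matched to rows, and coordinates and lengths came from GENCODE M21 (GRCm38), by identifier. Columns totalled 19537211, 22713416, 19269851 and 22425865 counts (Fgf9_null 2 and 3, Fgf9_het 2 and 3), so 1 count is 0.0440 to 0.0519 CPM. The deviations of same-numbered columns from group means correlated at 0.998, because they hold the same library, and their CPM were averaged. Counts were rounded and tested over all genes with edgeR 4.0.16 in R 4.3.3 (TMM, filterByExpr, quasi-likelihood, Benjamini-Hochberg, 0.05), and with DESeq2 1.42.0 and limma 3.58.1 as alternatives. The fits were tested on simulated data. Library folds carry exact conditional binomial intervals (95%, counting error only). The members and lists were chosen with earlier results of these data known. Named beyond the 10 were the 3 most abundant genes per kilobase of each list, list genes that differed by 25% or more and those under 3 counts. One gene that the rule yields is not reported here.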

Additional observations from a re-analysis of the deposited data

How the results depend on the processing

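Alternatives changed no call of the 10 genes between the genotype labels. The count of called genes was 0 by edgeR with RLE or upper-quartile factors, with both other filters, at 0.1, and by limma-voom, and it was 3 with DESeq2, 6 with the replicate block and 1 to 2 without 1 column, where the lone column was assumed to vary like the other group. The log2 folds, all within 0.001 of 0 with all columns, changed sign for Kdr (0.000344 with RLE, 0.000348 with upper-quartile factors, 0.000286 with DESeq2), Pecam1 (0.000334, 0.000349 and 0.000277) and Vegfa (3.24e-06 with RLE). Under the block they ran from -0.000705 for Cdh5 to 0.000343 for Lyve1. Without 1 column, which sets unequal numbers of the libraries against each other, the folds ran from -0.158 to 0.157 for Cdh5, -0.117 to 0.117 for Pecam1, -0.0712 to 0.0716 for Tek, -0.0954 to 0.0944 for Kdr, -0.170 to 0.170 for Flt1, -0.0139 to 0.0143 for Flt4, -0.168 to 0.168 for Prox1, -0.213 to 0.213 for Lyve1, -0.0317 to 0.0297 for Vegfa and -0.0209 to 0.0214 for Vegfc. Genes that differed by 25% or more between the libraries numbered 2446 of 16712, against 649 of 16712 at 1.5-fold. By 25% or more, they numbered 883 of 12731 at 5 CPM or more in both libraries and 8377 of 25293 with any count in both. The 40 library folds of the 10 genes under other library sizes or columns stayed within their counting intervals, and leaving out ribosomal, structured and mitochondrial RNA raised the levels by 1.23 times. Levels under 10 CPM (Prox1, Lyve1, Vegfc) rest on 166 counts or fewer in a library, which limits their precision. Per kilobase, 24 of 30 levels moved by more than 1 SD with another length.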

Other observations

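Genes of a list for pericytes, the cells that wrap small vessels, were all lower in library 2, against 45.8% of all genes. The list also holds a growth factor gene, so not each of its genes marks these cells. All 8 genes of the list reached 1 CPM, the median fold of library 2 over library 3 was 0.912, beside 1.01 for all genes, and none differed by 25% or more, against 14.6% of all genes. Notch3, Anpep and Pdgfrb led the list per kilobase at 276 ± 13.6, 138 ± 10.7 and 144 ± 13.3 CPM (SD, n = 2 libraries). These genes are also made by smooth muscle and mesenchyme of the stomach wall, so the list does not count pericytes alone. Summed over the list, the level was 994 CPM in library 2 and 1091 CPM in library 3.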
